A study of Mus musculus with 16 samples.

Results

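The 9 genes Adam8, Emilin2, Aqp9, Cd36, Sytl2, Aff3, Atp10d, Slamf6 and Ehd1 were chosen for their difference between TIM-3 positive and TIM-3 negative mouse CD8+ T cells after 5 days of culture. They were taken by symbol from a matrix of 34573 gene symbols, and all 9 were among the 14332 genes that passed the filter on low counts. Because they were chosen on the day 5 difference, that difference is given for them as a description, with no test. Tests on these 9 genes were run on day 2 against naive cells, and on the mean of both day 5 states against day 2 or naive cells. The day 2 contrast compares no day 5 library, but day 5 libraries entered its scaling, filter and estimate of spread. The mean of both day 5 states does not use the difference between them, but it holds the Tex values.

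RNA-seq was made from CD8+ T cells of C57BL/6 mice in 4 states, with 3 libraries in each state and 0.2 M cells in each library. Tn libraries are naive spleen cells at day 0, sorted as CD8+ CD44- CD62L+ and not stimulated. The other states share an in vitro stimulation of purified naive cells with antibodies to CD3e and CD28, at 10 µg/ml each, and IL-2 added after a night at 300 U/ml. From the CD8+ cells of these cultures, Teff1 is the PD-1+ TIM-3- fraction of day 2, Teff2 the PD-1+ TIM-3- fraction of day 5, and Tex the PD-1+ TIM-3+ fraction of day 5. No antigen, infection or tumour was part of the culture, and the labels do not say whether libraries came from separate animals or cultures. The p-values below therefore measure only the spread between these libraries, which may be technical. In bulk RNA, fewer cells that express a gene and less RNA per cell cannot be told apart.

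TIM-3, the protein of Havcr2, is an inhibitory receptor that marks CD8+ T cells late in exhaustion, a state reached when antigen signalling persists. In chronic infection and tumours, exhausted cells are commonly divided into a TIM-3 negative precursor state that carries Slamf6 and the transcription factor Tcf7, and a TIM-3 positive state that has lost them. The 9 genes belong to separate families: a surface protease, a matrix glycoprotein, a water and glycerol channel, a lipid receptor, a granule docking protein, a transcription elongation factor, a lipid flippase, a SLAM family receptor and a membrane recycling ATPase.

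Levels are counts per M counts (CPM) scaled between libraries by the trimmed mean of M values, and library totals ran from 14.7 to 21.2 M counts. At these totals 3 counts, the limit that a count of 0 allows, equal 0.143 to 0.204 CPM. The labelled cell type was checked first. Summed CD8 T cell markers, led by Cd8a, lay between 1882 and 4220 CPM in the 12 libraries, with none of the 6 listed genes at 0. Havcr2 held 34.6, 10.9 and 38.4 CPM in Tex replicates 1, 2 and 3, against 0.612, 0.258 and 0.43 CPM in Teff2, and was higher in Tex in every pair. Pdcd1, which encodes PD-1, was at 3.0 to 6.93 CPM in Tn and at 72.2 to 241 CPM in the sorted PD-1+ states.

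At day 5, 6 of the 9 genes were higher and 3 were lower in Tex than in Teff2 in all 3 pairs of equal replicate number. The higher genes were Adam8, Emilin2, Aqp9, Cd36, Sytl2 and Ehd1, and the lower genes were Aff3, Atp10d and Slamf6. The first 5 of the higher genes were at least 2-fold higher in each pair, on log2 values with 0.5 CPM added, where 0.14% of all genes kept were. That number was 1 with 2 CPM added and 0 on the deposited normalized values. Log2 fold changes ran smaller on those values than on counts, at -2.17 against -4.1 for Cd36 in Teff1 over Tn. For Aff3 in the day 5 mean over Teff1 they were -0.56 against -0.81. The same 2-fold limit is therefore stricter on the deposited values. None of the lower genes was 2-fold lower in each pair, where 0.0488% of all genes were. Without regard to pairs, all Tex libraries lay above all Teff2 libraries for Cd36, Sytl2 and Ehd1 (2.46% of all genes) and below them for Aff3 and Atp10d (2.35%). The genes were chosen on this contrast, so nothing is read from these shares.

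**Figure D1:**
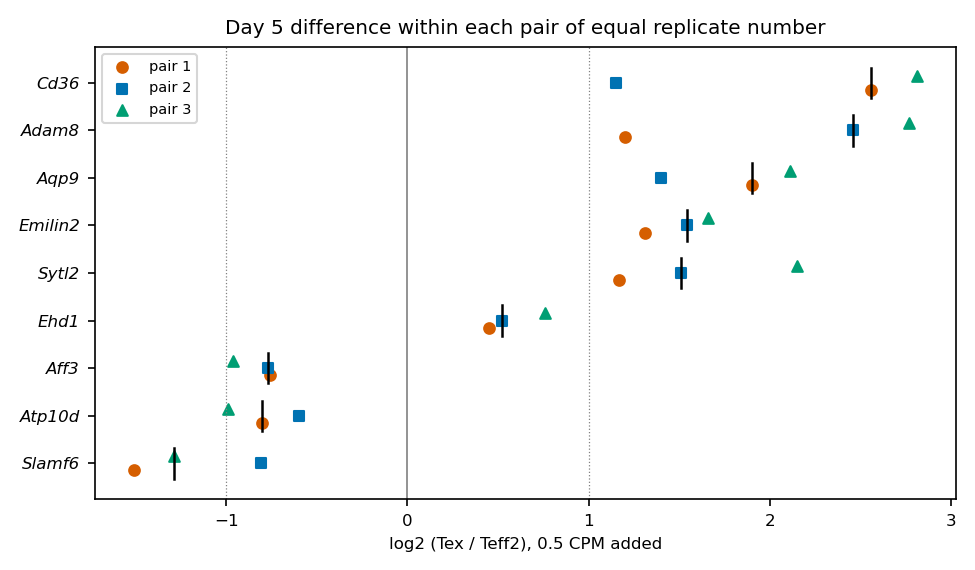
Log2 ratio of Tex to Teff2 in each pair of equal replicate number, one row per gene, with a bar at the median of the 3 pairs and dotted lines at a 2-fold difference. Every point of the 6 upper genes lies right of 0 and every point of Aff3, Atp10d and Slamf6 left of it, and pair 3 holds the largest difference for 8 of the 9 genes.

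RefSeq promoter windows (assembly GRCm38.p6) were found for 6 of the 9 genes, namely Adam8, Emilin2, Aqp9, Cd36, Aff3 and Slamf6, with 2 start sites each for Emilin2 and Aqp9. The windows of 5 start sites follow: those of the 4 genes with a window that were higher in Tex, and that of Slamf6, the gene with the largest difference among the lower ones. Each is the 250 bases before the start site, 5′ to 3′ on the gene's strand, and capitals mark a match to a searched motif. The printed windows of Adam8, Cd36 and Aqp9 lie inside the gene spans given below, so these are internal start sites.
Aqp9, second start, chr9:71162634-71162883, minus strand: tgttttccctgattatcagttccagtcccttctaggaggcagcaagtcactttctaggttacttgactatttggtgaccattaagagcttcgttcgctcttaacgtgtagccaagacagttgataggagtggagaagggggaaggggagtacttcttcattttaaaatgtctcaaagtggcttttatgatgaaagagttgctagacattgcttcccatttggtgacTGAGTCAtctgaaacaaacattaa
Cd36, chr5:17835897-17836146, minus strand: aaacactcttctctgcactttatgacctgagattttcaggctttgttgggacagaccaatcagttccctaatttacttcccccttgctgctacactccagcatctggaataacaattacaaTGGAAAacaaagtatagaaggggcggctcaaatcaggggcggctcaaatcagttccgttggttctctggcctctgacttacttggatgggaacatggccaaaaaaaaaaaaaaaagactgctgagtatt
Emilin2, first start, chr17:71311557-71311806, minus strand: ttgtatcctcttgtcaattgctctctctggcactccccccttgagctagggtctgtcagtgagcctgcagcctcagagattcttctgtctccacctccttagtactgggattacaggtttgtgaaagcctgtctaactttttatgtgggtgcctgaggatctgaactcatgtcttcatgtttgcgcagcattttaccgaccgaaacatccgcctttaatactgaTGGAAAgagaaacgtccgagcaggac
Adam8, chr7:139992563-139992812, minus strand: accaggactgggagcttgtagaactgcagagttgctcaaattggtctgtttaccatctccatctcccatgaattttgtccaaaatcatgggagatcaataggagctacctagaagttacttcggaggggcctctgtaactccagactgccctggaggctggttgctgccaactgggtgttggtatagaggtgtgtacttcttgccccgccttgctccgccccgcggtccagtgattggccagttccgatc
Slamf6, chr1:171917212-171917461, plus strand: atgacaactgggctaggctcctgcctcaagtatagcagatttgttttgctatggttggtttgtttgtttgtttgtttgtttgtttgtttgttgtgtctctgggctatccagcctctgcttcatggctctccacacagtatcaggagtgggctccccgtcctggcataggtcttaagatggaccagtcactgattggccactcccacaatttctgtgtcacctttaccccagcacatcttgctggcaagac

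These windows were searched on both strands for 10 short motifs of factors that act in T cells, and no matches overlapped each other. The AP-1 motif TGANTCA was in the second Aqp9 window, 24 to 18 bases before the start, and in 6.75% of 32851 promoters of the same length. The NFAT core with a flanking base, TGGAAA, was in windows of Cd36, Emilin2 and Aqp9 (the first start), and in 18.6% of all promoters. An ETS motif, CCGGAAG, was on the minus strand of the second Emilin2 window, and in 6.91% of all promoters. The windows of Adam8, Aff3 and Slamf6 held no match to any of the 10. No window of these genes held the cAMP response element TGACGTCA (1.55% of all promoters), the NF-kB motif (0.356%) or the RUNX motif TGTGGT (14.0%). Also without a match were the TCF/LEF motif CTTTGAT (3.21%), the T-box motif GGTGTGA (3.33%), the E-box CACGTG (6.02%) and the TATA box TATAAA (12.4%). GC content set the Aff3 window apart from the other 7, with 82.0% and 41 CG pairs, where the median of all promoters was 52.4% and the other windows of these genes ran from 40.4% to 57.6%. A match describes letters in these windows and is not a measured binding site.

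Adam8 encodes a membrane protease of the ADAM family that is found mainly on myeloid and activated immune cells (chr7:139978932-139995207, mm10). Its levels were 7.56, 2.38 and 6.45 CPM in the Tn libraries, 3.62, 2.28 and 2.18 in Teff1 libraries, 52.7, 8.39 and 11.4 in Teff2 libraries and 122, 48.4 and 80.8 CPM in Tex libraries, in the order of replicates 1 to 3. Both day 5 states lay above every Tn and Teff1 library, while Tex and Teff2 overlapped because Teff2 replicate 1 exceeded Tex replicate 2. Within pairs the log2 ratio of Tex to Teff2 was 1.2, 2.46 and 2.77. The order of state means was Tex (83.6 ± 36.7 CPM, SD, n = 3), Teff2 (24.2 ± 24.8), Tn (5.46 ± 2.72) and Teff1 (2.69 ± 0.8), and both Tex with Teff2 and Tn with Teff1 overlapped.

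Emilin2 encodes a secreted glycoprotein of the elastin microfibril interface (chr17:71252172-71311556). It held 6.1, 0.204 and 5.7 CPM in the Tn libraries, 0.381, 1.95 and 2.12 in Teff1 libraries, 0.969, 17.9 and 9.84 in Teff2 libraries and 3.13, 53.1 and 32.3 CPM in Tex libraries. Replicate 1 was the lowest library of each activated state, at -1.52, -3.23 and -3.53 log2 units from the mean of replicates 2 and 3 in Teff1, Teff2 and Tex. Even so, the ratio within pairs was the most even of the 5 genes past 2-fold, at 1.31, 1.54 and 1.66 on the log2 scale (SD 0.18). The ratio of pair 1 rests on 19 counts in Teff2 and 57 in Tex. State means ran from Tex (29.5 ± 25.1 CPM) through Teff2 (9.58 ± 8.48) and Tn (4.0 ± 3.29) to Teff1 (1.48 ± 0.959), and each neighbour in that order overlapped the next.

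Aqp9 encodes a channel for water, glycerol and other small solutes (chr9:71110659-71167849). The gene was low throughout, at 2.19, 1.5 and 2.85 CPM in the Tn libraries, 5.04, 1.71 and 1.15 in Teff1 libraries, 3.16, 0.774 and 1.29 in Teff2 libraries and 13.1, 2.86 and 7.23 CPM in Tex libraries. Here replicate 1 was the highest library of each activated state, by 1.54, 1.28 and 1.42 log2 units, and Tex replicate 2 lay under Teff2 replicate 1. The log2 ratio within pairs was 1.9, 1.4 and 2.11. Tex had the highest mean (7.74 ± 5.15 CPM), and the libraries of Teff1 (2.64 ± 2.1), Tn (2.18 ± 0.675) and Teff2 (1.74 ± 1.26) overlapped.

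Cd36 encodes a scavenger receptor that takes up fatty acids and oxidised lipoproteins (chr5:17781690-17888959). Its levels were 7.95, 2.72 and 6.83 CPM in the Tn libraries, 0.143, 0.665 and 0.182 in Teff1 libraries, 0.459, 0.968 and 0.914 in Teff2 libraries and 5.16, 2.75 and 9.42 CPM in Tex libraries. The Teff1 values rest on 3, 14 and 3 counts. All Tex libraries lay above all Teff2 libraries, with log2 ratios of 2.56, 1.15 and 2.81 within pairs. Tn (5.83 ± 2.75 CPM) and Tex (5.78 ± 3.37) overlapped at the top of the order, and Teff2 (0.78 ± 0.279) and Teff1 (0.33 ± 0.291) overlapped below them.

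Sytl2 encodes a synaptotagmin-like protein that tethers Rab27a-bearing granules to the plasma membrane (chr7:90302211-90410719). It stood at 15.6, 10.9 and 16.9 CPM in the Tn libraries, 0.952, 1.09 and 1.21 in Teff1 libraries, 1.94, 0.968 and 1.94 in Teff2 libraries and 5.0, 3.67 and 10.3 CPM in Tex libraries. Naive libraries were all higher than Tex libraries, which in turn were all higher than Teff2 libraries. Teff2 (1.61 ± 0.56 CPM) and Teff1 (1.09 ± 0.131) overlapped. The day 5 log2 ratio was 1.17, 1.51 and 2.15 in pairs 1, 2 and 3.

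Ehd1 encodes an ATPase that drives the return of receptors from recycling endosomes to the cell surface (chr19:6276896-6300096). This gene had the smallest day 5 difference of the 9. It held 104, 112 and 98.8 CPM in the Tn libraries, 101, 73.1 and 78.3 in Teff1 libraries, 103, 93.4 and 88.7 in Teff2 libraries and 141, 134 and 150 CPM in Tex libraries. Every Tex library exceeded the other 9 libraries, while Tn (105 ± 6.45 CPM), Teff2 (95 ± 7.3) and Teff1 (84.2 ± 15) overlapped one another. Within pairs the log2 ratio was 0.45, 0.52 and 0.76.

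Slamf6 encodes a homophilic receptor of the SLAM family and a surface marker of precursor exhausted cells (chr1:171917458-171948958). Its levels were 116, 121 and 132 CPM in the Tn libraries, 41.1, 22.5 and 41.3 in Teff1 libraries, 27.3, 7.87 and 19.3 in Teff2 libraries and 9.23, 4.27 and 7.6 CPM in Tex libraries. In falling order the state means were Tn (123 ± 8.36 CPM), Teff1 (35.0 ± 10.8), Teff2 (18.2 ± 9.76) and Tex (7.03 ± 2.53), and the last 3 overlapped neighbour with neighbour. Replicate 2 was lowest in each activated state, and Teff2 replicate 2 lay within the Tex range. The log2 ratio of Tex to Teff2 was -1.51, -0.81 and -1.29 in pairs 1, 2 and 3.

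Aff3 encodes a nuclear protein of the AF4 family, whose members join the super elongation complex that releases paused RNA polymerase (chr1:38175393-38630178). It held 114, 102 and 131 CPM in the Tn libraries, 154, 115 and 89.6 in Teff1 libraries, 97.9, 85.9 and 89.2 in Teff2 libraries and 57.7, 50.2 and 45.6 CPM in Tex libraries. All Tex libraries were below the other 9 libraries. The log2 ratio within pairs was the most even of the 9 genes, at -0.76, -0.77 and -0.96 (SD 0.11). Teff1 (119 ± 32.4 CPM) overlapped both Tn (115 ± 14.3) and Teff2 (91.0 ± 6.23). A long noncoding RNA and a pseudogene overlap Aff3 in the annotation, and their highest level in any library was 4.11 CPM. Overlapping transcripts of Adam8 reached at most 1.12 CPM.

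Atp10d belongs to the P4 ATPases, which flip lipids between the leaflets of membranes (chr5:72203329-72298771), and RefSeq lists it in GRCm38.p6 as a transcribed pseudogene. Its RNA was at 106, 89.8 and 91.7 CPM in the Tn libraries, 18.7, 15.7 and 15 in Teff1 libraries, 16.6, 11.5 and 17.3 in Teff2 libraries and 9.34, 7.45 and 8.43 CPM in Tex libraries. Naive libraries stood far above the rest and Tex libraries lay below all others. Teff1 (16.5 ± 1.93 CPM) and Teff2 (15.1 ± 3.12) overlapped between them. The log2 ratio of Tex to Teff2 was -0.8, -0.6 and -0.99 in pairs 1, 2 and 3.

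**Figure D2:**
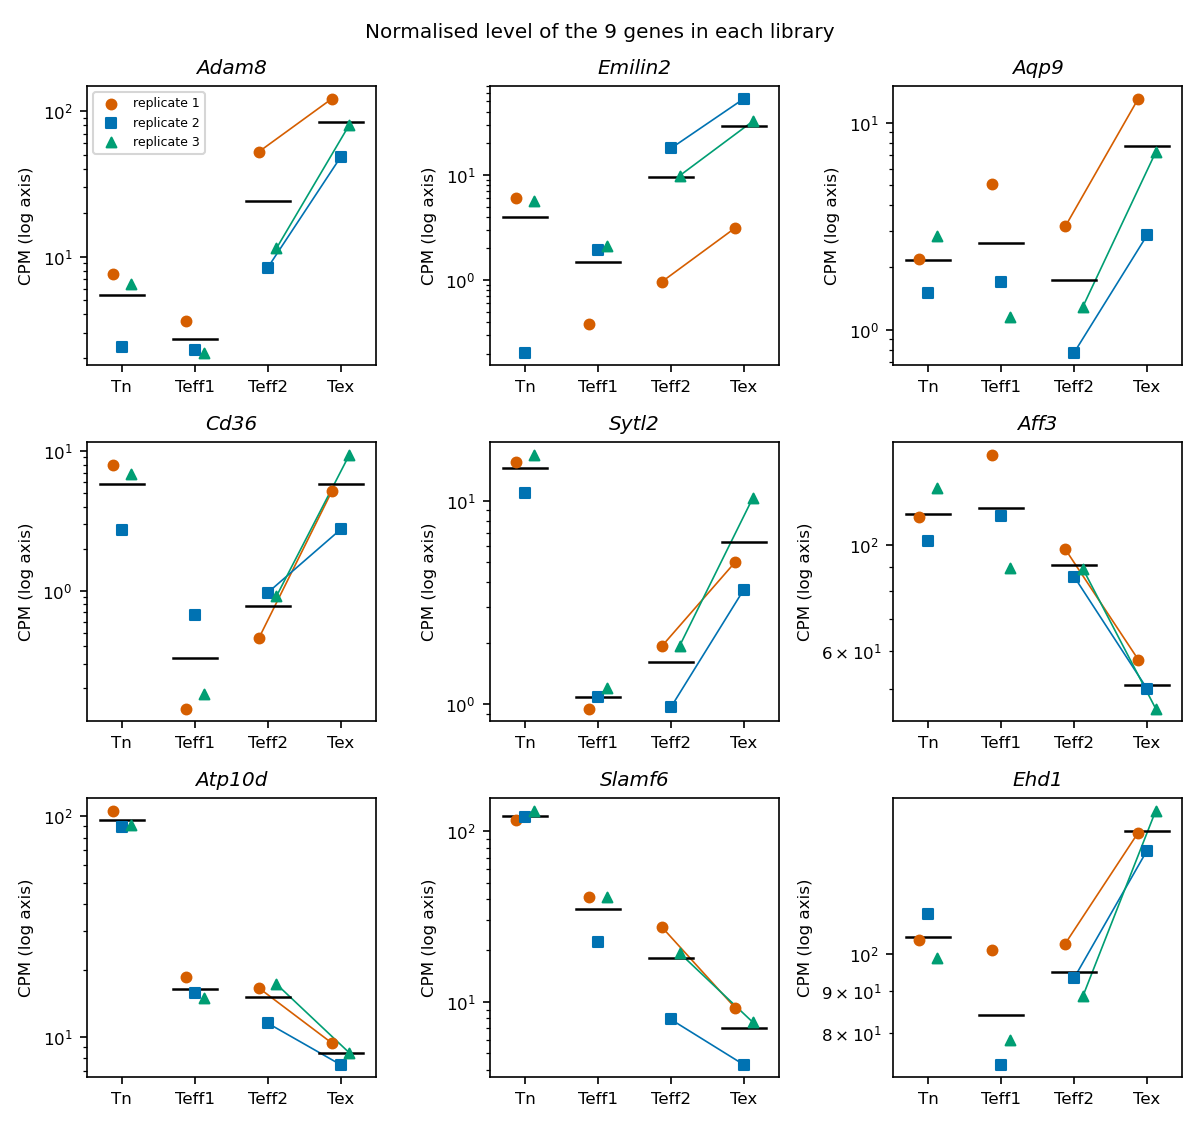
CPM on a log axis of the 9 genes in the 12 libraries, with 1 panel per gene, symbols for replicates 1 to 3, a bar at each state's mean, and lines joining Teff2 and Tex libraries of equal replicate number. All lines rise for Adam8, Emilin2, Aqp9, Cd36, Sytl2 and Ehd1 and all fall for Aff3, Atp10d and Slamf6, while Cd36 and Sytl2 start from high Tn values and Emilin2 is lowest in replicate 1 of the activated states.

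The first comparison that did not choose the genes asked how they changed over the first 2 days of stimulation. With edgeR's quasi-likelihood test on all 12 libraries and Benjamini-Hochberg adjustment over 14332 genes, 4 of the 9 genes were lower in Teff1 than in Tn at an adjusted p under 0.05, and 0 were higher. Over all genes tested 24.5% were called lower and 24.5% higher. DESeq2 also called 4 lower and 0 higher, and none of the 9 was higher at an unadjusted p under 0.05. An edgeR fit of the 6 Tn and Teff1 libraries alone, without any day 5 library, called 4 lower and 0 higher as well. Sytl2 fell by 3.73 ± 0.45 (log2 ± SE, adjusted p = 7.17e-05) and Cd36 by 4.1 ± 0.7 (adjusted p = 0.000674). Atp10d had a log2 fold change of -2.54 ± 0.19 (adjusted p = 4.96e-06) and Slamf6 one of -1.81 ± 0.4 (adjusted p = 0.00323). For these 4 genes every Teff1 library was under every Tn library, but the share of all genes so separated was not computed, so nothing is read from this. The 4 genes are split at day 5, since Cd36 and Sytl2 are among the higher and Atp10d and Slamf6 among the lower in Tex. The other 5 were not called, with log2 fold changes of -1.02 for Adam8, -1.45 for Emilin2, 0.28 for Aqp9, 0.05 for Aff3 and -0.32 for Ehd1 (adjusted p between 0.0934 and 0.849). Ehd1 was called without Teff1 replicate 1 (-0.45, adjusted p = 0.0213), and the uncalled differences of Aqp9 and Aff3 changed sign there (-0.58 and -0.16).

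The second comparison set the mean of Teff2 and Tex against Teff1, the change from day 2 to day 5. Adam8 (4.05 ± 0.68, adjusted p = 0.0108) and Cd36 (2.64 ± 0.64, adjusted p = 0.0466) rose, and Aff3 (-0.81 ± 0.16, adjusted p = 0.0226) and Slamf6 (-1.63 ± 0.33, adjusted p = 0.0244) fell, by edgeR. These are 2 of 9 in each direction, where 2.22% of all genes tested rose and 1.08% fell, but the mean holds the Tex values of genes chosen for Tex, so the count is not read against those shares. For Cd36, Aff3 and Slamf6 the Teff2 libraries overlapped those of Teff1 and the Tex libraries did not, whereas for Adam8 both day 5 states lay above Teff1. Sytl2 missed the threshold with 1.56 ± 0.39 (adjusted p = 0.0508), and Emilin2 had a large but variable difference of 3.51 (adjusted p = 0.136). Aqp9 (0.48), Atp10d (-0.54) and Ehd1 (0.46) had adjusted p between 0.0764 and 0.754. These calls sit close to the threshold. The Adam8 call was lost without Teff1 replicate 2 (adjusted p = 0.068) or 3 (0.0523), and the Cd36 call without any 1 of 9 single libraries (adjusted p between 0.0611 and 0.162). For Aff3 leaving out Teff1 replicate 1 or 2, Teff2 replicate 3 or Tex replicate 3 gave adjusted p between 0.0525 and 0.0987, and for Slamf6 leaving out Teff1 replicate 1 or 3, Teff2 replicate 3 or Tex replicate 3 gave 0.0525 to 0.0946. Sytl2 was called without replicate 2 of Teff2 (adjusted p = 0.0382) or of Tex (0.0371).

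Over the whole 5 days, the mean of Teff2 and Tex was compared with Tn. Of the 9 genes 1 rose and 5 fell by edgeR, where 29.3% of all genes tested rose and 28.6% fell. This mean, too, holds the Tex values of genes chosen for Tex, so the count is not read against those shares. For the 6 genes called, the Teff2 libraries alone did not overlap those of Tn, while the Tex libraries of Cd36 did overlap them. The share of all genes without overlap between Teff2 and Tn was not computed, so nothing is read from this count. Adam8 rose by 3.04 ± 0.64 (log2 ± SE, adjusted p = 0.00164). Slamf6 changed by -3.44 ± 0.33 (adjusted p = 8.25e-06), Atp10d by -3.09 ± 0.15 (adjusted p = 1.24e-07), Sytl2 by -2.17 ± 0.33 (adjusted p = 0.000185), Cd36 by -1.46 ± 0.5 (adjusted p = 0.0255) and Aff3 by -0.76 ± 0.16 (adjusted p = 0.00183). Slamf6, Atp10d and Aff3 were thus lower at day 5 than in naive cells and lowest in Tex, whereas Sytl2 and Cd36 were at or under their naive levels in Tex and further under them in Teff2. Emilin2 (2.06, adjusted p = 0.119), Aqp9 (0.75, adjusted p = 0.311) and Ehd1 (0.15, adjusted p = 0.347) were not called. The Cd36 call was lost without Tn replicate 1 (adjusted p = 0.117) or Tn replicate 3 (adjusted p = 0.0874).

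**Figure D3:**
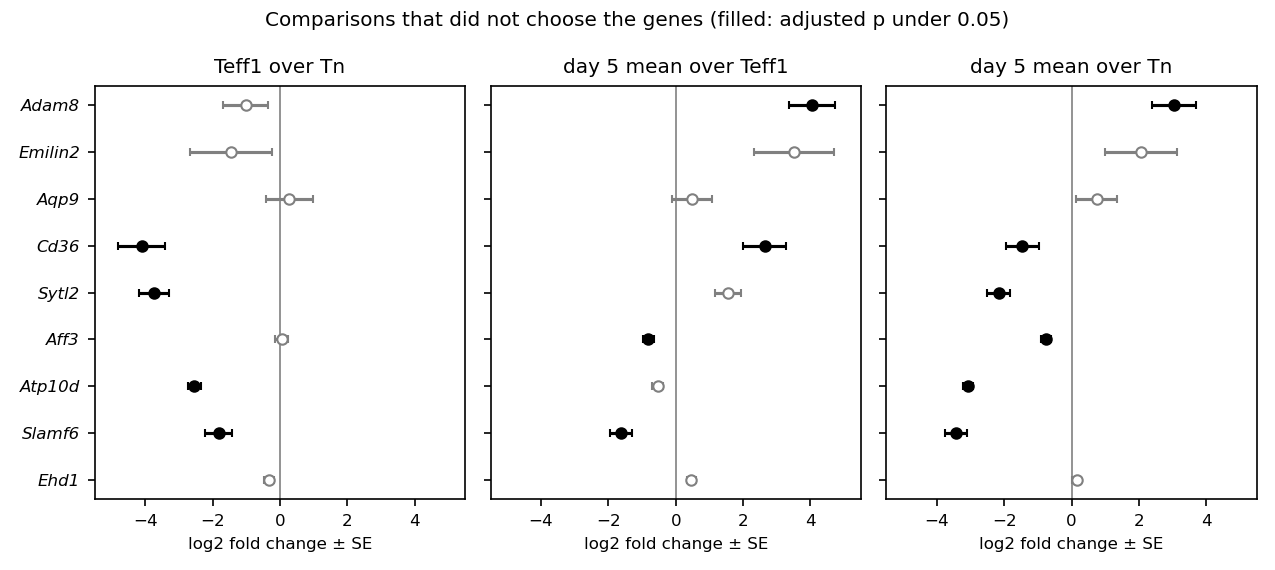
Log2 fold change with its standard error for the 9 genes in the 3 comparisons that did not choose them, from edgeR over 12 libraries, with filled points at an adjusted p under 0.05. Cd36, Sytl2, Atp10d and Slamf6 lie left of 0 in Teff1 over Tn, and Adam8 is the gene farthest right in both day 5 comparisons.

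The naive values of several of these genes differ between libraries together with markers of other cells. The log2 level of Tn replicate 2, less the mean of replicates 1 and 3, was -3.18 for Emilin2, -1.38 for Adam8, -1.29 for Cd36, -0.59 for Aqp9 and -0.55 for Sytl2. For Aff3, Atp10d, Slamf6 and Ehd1 the difference lay between -0.25 and 0.14. The 9 B cell markers, led by Cd79a, summed to 595, 46.1 and 1208 CPM in Tn replicates 1, 2 and 3, and the 11 macrophage and monocyte markers, led by Lyz2, to 320, 93.6 and 167 CPM. The 8 platelet markers, led by Itgb3, summed to 98.1, 46.9 and 88.4 CPM, and the 5 NK cell markers, led by Klrb1c, to 48.3, 3.0 and 105 CPM. None of these B cell, macrophage, platelet and NK cell markers was at 0 over the Tn libraries. CD8 T cell and erythroid markers went the other way, 0.56 and 0.43 log2 units higher in replicate 2. The part of other cells in the naive level of Emilin2, Adam8 and Cd36 was not tested. Leaving out both Tn libraries 1 and 3, an alternative chosen after seeing the data, left 1 Tn library, so only effect sizes are given. In Teff1 over Tn it gave -3.02 for Cd36, -3.34 for Sytl2, -2.46 for Atp10d and -1.8 for Slamf6. It turned the direction of the uncalled differences of Adam8, from -1.02 to 0.17, and of Emilin2, from -1.45 to 2.79. In the day 5 mean over Tn it gave -0.37 for Cd36 and -0.6 for Aff3, and took Emilin2 from 2.06 to 6.3. These Emilin2 values, and its -3.18, rest on 3 counts in Tn replicate 2.

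**Figure D4:**
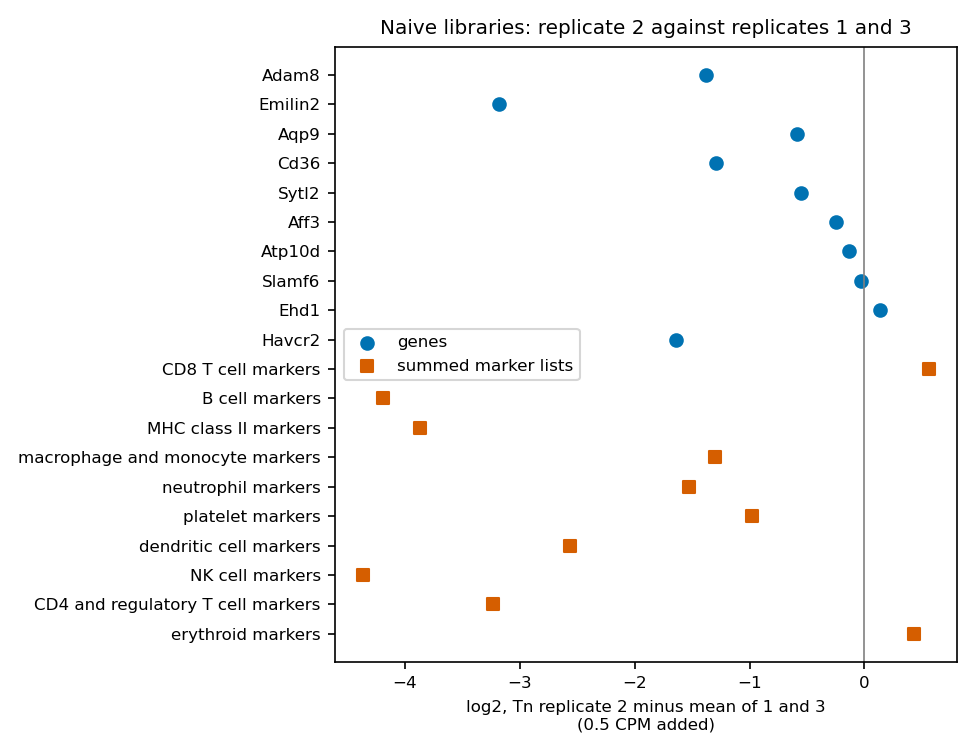
Log2 difference of Tn replicate 2 from the mean of Tn replicates 1 and 3, for the 9 genes and Havcr2 (circles) and for summed marker lists (squares). Emilin2 at -3.18 lies among the B cell, class II, NK cell, CD4 and regulatory T cell, and dendritic cell lists. Slamf6 at -0.03 and Atp10d at -0.13 lie next to 0.

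The marker lists were also summed in both day 5 states. Macrophage and monocyte markers summed to 8.57, 7.74 and 11.6 CPM in Teff2 and 7.47, 8.15 and 9.88 CPM in Tex, nearly all of it Cd68, with Marco at 0 in both. Neutrophil markers summed to at most 0.33 CPM in any Teff2 or Tex library, with S100a8, S100a9, Elane, Retnlg, Csf3r and Cxcr2 at 0 in both states. The 8 platelet markers summed to 21.3, 22.5 and 59.2 CPM in Teff2 and 23.0, 26.1 and 61.9 CPM in Tex, replicate 3 of both above Tn replicate 2. Most of that was the integrin gene Itgb3 (means of 27.5 and 31.6 CPM), and Pf4, Ppbp, Gp6 and Treml1 were at 0 in Teff1, Teff2 and Tex. The 4 MHC class II markers, led by Cd74, summed to 121, 50.9 and 39.4 CPM in Teff2 and 82.9, 64.8 and 36.4 CPM in Tex, with none at 0. The dendritic cell list, nearly all Zbtb46, held 2.97 to 22.6 CPM in Teff2 and 4.75 to 19.7 CPM in Tex, with Cd209a at 0 in both. The CD4 and regulatory T cell list, nearly all Zbtb7b, held 46.2 to 127 CPM in Teff2 and 58.7 to 127 CPM in Tex, with none at 0. B cell markers ran from 7.48 to 10.8 CPM in Teff2 and from 8.46 to 10.7 CPM in Tex. NK cell markers summed to 0.204, 0 and 0.269 CPM in Teff2 and 2.47, 0.108 and 0.78 CPM in Tex, higher in Tex in each pair. Adam8, Emilin2, Aqp9 and Cd36 are also expressed by myeloid cells, and they were higher in Tex in all 3 pairs. The macrophage and class II sums were higher in Tex in pair 2 and lower in pairs 1 and 3. The dendritic cell sum was higher in Tex in pairs 2 and 3 and lower in pair 1. The neutrophil sum was higher in pairs 1 and 2 and lower in pair 3, and the platelet sum was higher in all 3 pairs. The part of the marker lists in the day 5 values of the 9 genes was not tested.

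Replicate 1 of the activated states stood apart for several of these genes, and each day 5 ratio above is within a replicate. Against the mean of replicates 2 and 3, replicate 1 of Teff2 was higher by 2.37 for Adam8, 1.28 for Aqp9 and 1.11 for Slamf6 on the log2 scale, and for Emilin2 it fell by 3.23. Those 4 genes are the ones whose Teff2 and Tex libraries overlapped, though for Slamf6 it was Teff2 replicate 2, at 7.87 CPM, that lay within the Tex range. With replicate 1 of Teff1, Teff2 and Tex left out, also chosen after seeing the data, Adam8 was lower in Teff1 than in Tn (-1.21, adjusted p = 0.0408) and Emilin2 was higher in the day 5 mean than in Tn (2.68, adjusted p = 0.00568). Ehd1 was then lower in Teff1 than in Tn (-0.4, adjusted p = 0.0295) and higher in the day 5 mean than in Teff1 (0.6, adjusted p = 0.0423). The Cd36 calls of the day 5 mean were lost in both comparisons, at adjusted p = 0.115 over Teff1 and 0.0659 over Tn.

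Families and pathways around the 9 genes were listed with earlier results of these data known, and gave 133 further genes in 11 lists, of which 106 passed the filter. In Tex over Teff2, edgeR called 1 of the 106, Havcr2 (log2 fold change 5.97, adjusted p = 0.0431), which was also the only gene called of all 14332, or 0.00698%. Havcr2 encodes the protein used for the sort. At an unadjusted p under 0.05 there were 251 genes, and DESeq2 called 5. With any single library left out, other than Tn replicate 2 or Tex replicate 2, the count of listed genes called was 0. Replicate numbers paired the Tex and Teff2 libraries, and a fit of the 6 day 5 libraries alone, within pairs, called 13 of 97 listed genes tested, 8 higher and 5 lower, where 0.962% of 13096 genes were called higher and 0.725% lower. The replicate number as a block over all 12 libraries called 1, so these calls rest on the fit of day 5 libraries alone. Genes other than Havcr2 are named here because that fit called them, after their values were seen. Tox, Cd101, Nr4a2, Xcl1 and Cxcr5 were not called and are named because they lay opposite to the calls of their list. Satb1 is named because it lay at 0.

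In the list of genes associated with terminal exhaustion, 6 of 15 tested were higher within pairs and 0 lower. Havcr2 is among the 6 and encodes the protein used for the sort, so its call is not independent of the sort. After Havcr2 (5.98, adjusted p = 3.61e-06) came Cd244, a SLAM receptor (2.35, adjusted p = 0.0336), and Prdm1, which encodes the repressor Blimp-1 (2.09, adjusted p = 0.0271). The chemokine receptor gene Cxcr6 (1.33, adjusted p = 0.0173), the ectonucleotidase gene Entpd1 (1.16, adjusted p = 0.0482) and the transcription regulator Id2 (0.71, adjusted p = 0.016) followed. Among genes tested but not called, Tox (-0.71, adjusted p = 0.0921), Cd101 (-0.67, adjusted p = 0.131) and Nr4a2 (-0.29, adjusted p = 0.285) lay lower in Tex, the others higher. Tox held 11.3, 23.9 and 19.8 CPM in Teff2 and 10.5, 12.1 and 10.1 CPM in Tex. Cd244 was near the floor in Teff2, at 0.459, 0.258 and 0.376 CPM, against 3.96, 0.594 and 1.51 CPM in Tex. The NK cell marker sum had the same order of Tex libraries, at 2.47, 0.108 and 0.78 CPM, and was also higher in Tex in each pair. The part of NK cells in the Cd244 values was not tested. Prdm1 held 0.408, 3.61 and 1.29 CPM in Teff2 and 1.04, 9.18 and 12.4 CPM in Tex, so single libraries overlapped. In the list associated with the precursor state, to which Slamf6 belongs, 3 of the 13 other genes were lower and 0 higher. They were the transcription factor genes Myb (-1.01, adjusted p = 0.0164), Id3 (-0.75, adjusted p = 0.0232) and Tcf7 (-0.67, adjusted p = 0.0204). Of the uncalled genes in this list, Xcl1 (0.37, adjusted p = 0.422) and Cxcr5 (0.27, adjusted p = 0.755) lay higher in Tex. Satb1 was at 0 and the others lay lower. Tcf7 held 393, 140 and 136 CPM in Teff2 and 251, 106 and 70.3 CPM in Tex, and Myb 161, 89.1 and 148 CPM in Teff2 and 55.8, 58.3 and 80.8 CPM in Tex. Without the pairing none of these genes but Havcr2 passed the threshold. The median log2 fold change without pairing was 0.66 over the 16 terminal-associated genes, Havcr2 included. It was -0.24 over the 13 precursor-associated genes, beside 0 over all genes tested.

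Few close relatives of the 9 genes passed the test. Of the ADAM proteases 1 of 6 tested within pairs was higher, Adam19 (0.83, adjusted p = 0.0149), at 15.3, 28.6 and 27.2 CPM in Teff2 and 30.4, 40.5 and 55.3 CPM in Tex. Among granule docking and release genes 1 of 9 was higher, Sytl3 (0.44, adjusted p = 0.0448), a relative of Sytl2, at 38.4, 37.8 and 36.2 CPM in Teff2 and 52, 55.7 and 45.4 CPM in Tex. One P4 ATPase of 10 was lower, Atp8a1 (-0.64, adjusted p = 0.0258), as was 1 of 13 genes of the EHD recycling list, Ehd3 (-0.45, adjusted p = 0.0458), which lay opposite to Ehd1. Cd244 was the 1 of 9 SLAM receptors and adaptors called, in the direction opposite to that of Slamf6. No call was made among 12 lipid uptake and lipid droplet genes, 9 genes of the AFF family and its elongation partners, 1 EMILIN or 1 aquaporin tested beside the chosen genes. Median log2 fold changes of these 9 family lists without pairing lay between -0.28 and 0.39.

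**Figure D5:**
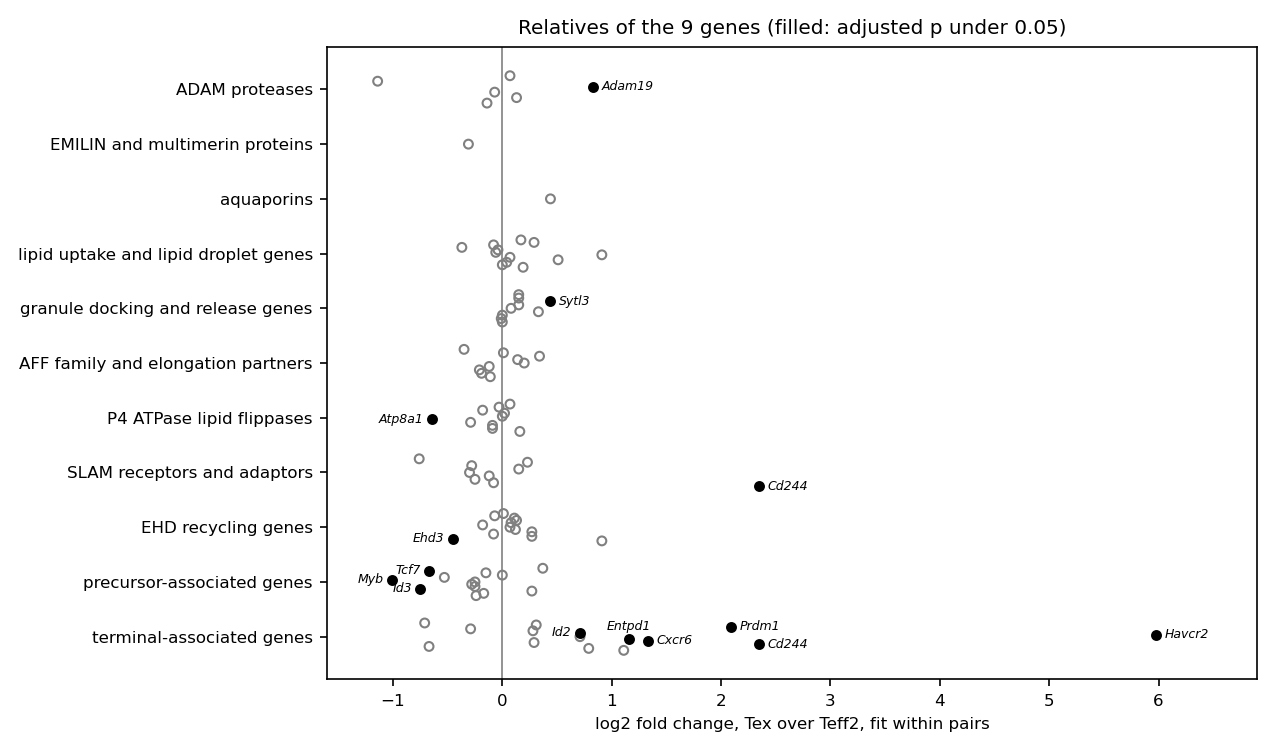
Log2 fold change of Tex over Teff2, fitted within pairs, for the listed genes other than the 9 chosen ones, with 1 row per list and filled, named points at an adjusted p under 0.05. Filled points in the terminal-associated row lie right of 0, from Id2 at 0.71 to Havcr2 at 5.98, and those in the precursor-associated row lie left of it.

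Activation over the first 2 days was read for the same lists. In Teff1 over Tn 25 of 106 were higher and 38 lower by edgeR, beside 24.5% of all genes in each direction, and their median was -0.24 beside -0.06 over all genes tested. Among SLAM receptors and adaptors 2 of 10 were higher and 4 lower, and Slamf1, at 8.1 to 12.0 CPM in Tn and 85.0 to 179 CPM in Teff1, moved opposite to Slamf6 (3.55 ± 0.3, adjusted p = 9.97e-06). In the lipid list 5 of 14 were higher and 3 lower, and the called gene with the largest difference was Vldlr, a lipoprotein receptor gene at 0.0663, 0.136 and 0 CPM in Tn against 13.3, 8.32 and 1.94 CPM for Teff1 (adjusted p = 9.52e-05), higher where Cd36 was lower. Stx11, which encodes a syntaxin needed for granule release, rose by 2.41 ± 0.28 (adjusted p = 6.27e-05) while Sytl2 fell. For Stx11, Tn libraries held 8.48, 3.54 and 9.03 CPM, against 41.9, 35.0 and 35.6 CPM for Teff1. Atp10a, a flippase gene of the same subfamily as Atp10d, rose by 1.71 ± 0.28 (adjusted p = 0.000501), from 39.1 to 42.8 CPM in Tn to 109 to 153 CPM in Teff1. Precursor-associated genes were lower in 8 of 13, led by Klf2, a factor of naive cell homing (-6.08 ± 0.59, adjusted p = 1.9e-05), and higher in 1, the chemokine gene Xcl1 (5.4 ± 0.65, adjusted p = 7.24e-05). Terminal-associated genes were split, 6 of 16 higher and 7 lower, with Gzmb, the gene of granzyme B, rising by 7.81 ± 1.07 (adjusted p = 0.000166).

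The 9 genes did not share 1 pattern over the 12 libraries. Likeness was measured as the root mean square difference of log2 CPM, each gene centred on its own mean, where 0 is an identical profile, and 11773 genes were searched. The closest pairs among the 9 were Cd36 with Sytl2 (0.58) and Atp10d with Slamf6 (0.6), whose libraries share depth and scaling. Nearest to Adam8 were Mid2 (0.62) and Yap1 (0.74), and to Emilin2 Il1rl1 (0.78) and Mtap6 (0.88). Nearest to Aqp9 were Il1a (0.39) and Pdgfa (0.56), both low as Aqp9 is, at 2.14 ± 2.16 and 2.25 ± 2.52 CPM in Tex (SD, n = 3). Cd36 was nearest to Tcrg-C2 (0.64) and S1pr3 (0.67), and Sytl2 to Myo1f (0.44) and Itgb5 (0.53). Myo1f held 89.2 ± 23.1 CPM in Tn, against 6.86 ± 0.925 in Teff1, 17.4 ± 0.986 in Teff2, then 30.1 ± 9.71 in Tex, the order of states seen for Sytl2. Aff3 was nearest to Camk2d (0.24) and Arhgap31 (0.28), and Slamf6 to Rtn4rl1 (0.48) and Il6st (0.51). Atp10d lay close to Mex3b (0.24) and Zfp831 (0.25), and Zfp831 held 132 ± 7.51 CPM in Tn, against 20.8 ± 5.57 in Teff1, 16.3 ± 5.53 in Teff2, then 10.5 ± 2.32 in Tex. Ehd1 was nearest to Atp6v0d1 and Tax1bp1 (both 0.18), and since Ehd1 itself varied little (0.31 about its own mean) many flat genes lie near it.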

How the data were processed

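The authors deposited a matrix of raw counts, whole numbers per gene symbol, for 12 RNA-seq libraries, and a second matrix of normalized values on a log2 scale for 21574 genes, running from -1.99 to 17.7, whose transformation is not given in the sources used here. The submitters' processing notes name BWA, Juicer, HISAT2, HTSeq and DESeq2 and the assembly mm10, with no versions, and strandedness is not stated, so antisense and overlapping genes cannot be told apart. The 4 Hi-C samples were not analysed here.

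From the deposited counts, CPM were computed with TMM factors, and 0.5 CPM was added before log2. Genes were kept by filterByExpr. Tests were edgeR's (4.0.16, R 4.3.3) quasi-likelihood F tests on all 12 libraries with no covariates and Benjamini-Hochberg adjustment over 14332 genes, called at an adjusted p under 0.05. The standard error is the absolute log2 fold change over the root of F. The scripts were tested on simulated data. No 2 libraries were identical.

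Replicate numbers come from the library titles. Deviations from group means correlated between same-numbered Tex and Teff2 libraries, with r of 0.85, 0.78 and 0.75, so these were treated as pairs. For every other pair of states at least 1 such correlation was 0.1 or less.

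Named were all 9 genes, the genes of the sorted proteins where used, the called genes of largest change in each list (up to 2 per direction for Tex over Teff2, 1 for Teff1 over Tn, where the higher state reached 2 CPM), the 2 nearest profiles per gene, and the most abundant gene of a marker list. Beyond this rule, all listed genes called within pairs were named after their values were seen. So were the uncalled Tox, Cd101, Nr4a2, Xcl1, Cxcr5 and Satb1, single marker genes at 0 and the markers behind a sum. The 9 genes and all lists were chosen with earlier results of these data known. Rbsn was read under its older symbol Zfyve20 and Adgre1 under Emr1. Coordinates, biotypes and promoters are RefSeq's for GRCm38.p6. Alternatives were DESeq2 (1.42.0) as test and for size factors, no filter, limma (3.58.1) on the deposited log2 values, a replicate block, a pseudocount of 2 CPM and leaving out libraries.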

Additional observations from a re-analysis of the deposited data

How the results depend on the processing

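No called value changed direction under the alternatives run. Uncalled differences in Teff1 over Tn did: without Tn libraries 1 and 3 Adam8 was at 0.17 and Emilin2 at 2.79, Aqp9 ran from -0.58 to 0.64 and Aff3 from -0.16 to 0.24 with single libraries left out (-0.04 without Tn replicate 2), and without replicate 1 of the activated states Aqp9 was at -0.53 and Aff3 at -0.1. Of the 27 combinations of gene and comparison, 14 changed call under at least 1 alternative, 8 of them in the day 5 mean over Teff1. That count was 4 of 9, and became 8 with DESeq2's Wald test, 7 with a replicate block, and 1 to 5 with single libraries left out. Over all genes the same comparison called 473, against 1177 by DESeq2 and 924 with the block. Deviations of same-numbered libraries 1, 2 and 3 correlated at r of 0.51, 0.24 and 0.03 between Teff1 and Teff2. Between Teff1 and Tex they correlated at 0.52, 0.27 and 0.03, so a pairing of Teff1 with the day 5 libraries is not established. Leaving out single libraries gave 4 to 5 of 9 for Teff1 over Tn and 5 to 6 for the day 5 mean over Tn, and the replicate block changed neither count. Of the listed relatives in Tex over Teff2, 1 was called, 0 to 1 with single libraries left out, 0 without replicate 1 of the activated states, and 13 in the paired fit of the 6 day 5 libraries alone. The genes at least 2-fold apart in every pair at day 5 numbered 5, and 5 to 6 with single pairs left out. They numbered 1 with 2 CPM added, and 0 on the deposited normalized values, where log2 differences ran smaller. The day 5 difference of Aqp9, Cd36 and Sytl2 is thus sized by the pseudocount, at medians of 1.49, 1.54 and 0.93 log2 units with 2 CPM added. So is that of Emilin2 in pair 1, at 0.969 CPM in Teff2 and 3.13 CPM in Tex. The causes of the other changes were not tested. Low counts limit Emilin2 in Tn replicate 2 and in replicate 1 of Teff1 and Teff2, Cd36 in Teff1, and Aqp9, Cd36 and Sytl2 in Teff2.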
